A study of Mus musculus with 6 samples.

Results

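The BCL-2 family decides whether a cell opens its mitochondria and dies, and 10 of its genes were followed here in RAW264.7 cells. The 10 are the pro-survival genes Bcl2, Bcl2l1, Mcl1, Bcl2a1b and Bcl2a1d, the BH3-only genes Bcl2l11, Bid, Bad and Bmf, and the effector Bak1. They were chosen by name, with earlier results of these data known, and mapped from the Ensembl gene IDs by the mouse annotation GENCODE M21. Each of the 10 matched 1 of the 55536 gene IDs, and all 10 were high enough to test among 11120 tested genes.

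RAW264.7 is a transformed mouse macrophage line, and the cytokine RANKL drives it towards osteoclasts, the cells that resorb bone. In 3 libraries the cells had received RANKL at 50 ng/mL together with 4 µM etelcalcetide, a peptide agonist of the calcium-sensing receptor. In the other 3 libraries they had received RANKL at 50 ng/mL alone. No library without RANKL was analysed here. Both groups are of the same line. No label names separate cultures for the replicates, and the p-values therefore cover only the spread between these libraries, which may be technical. The culture time is 5 days in the design text, but by label it was 5 days for replicate 1, 6 days for replicate 2 and 7 days for replicate 3 in each group.

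Pro-survival proteins of the family hold the effectors BAX and BAK in check at the outer mitochondrial membrane. BH3-only proteins are made or activated under stress or growth factor loss and bind the groove of the pro-survival proteins, which frees the effectors to open the membrane and release cytochrome c. In osteoclasts, which are short-lived cells, the BH3-only protein BIM, encoded by Bcl2l11, is known in mice as a regulator of cell lifespan.

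RNA was measured by bulk sequencing and deposited as FPKM, which are read counts scaled for exon length and library size. Levels can thus be compared between genes, but less safely for members that share sequence or exon positions with other genes (below). The values corresponded to 13742913 to 16264432 gene-assigned reads per library. The test was limma on log2 FPKM at a Benjamini-Hochberg adjusted p under 0.05, and 53.0% of all tested genes passed it. Of these, 49.1% were higher with etelcalcetide, or 61.0% when libraries were scaled by their totals alone. Of 9 tested osteoclast markers 6 fell and 0 rose, and their summed level was 206 to 219 FPKM with etelcalcetide, against 393 to 539 FPKM with RANKL alone. Mmp9, the highest of them by mean, averaged 163 FPKM with etelcalcetide and 158 FPKM with RANKL alone. It did not pass (limma adjusted p = 0.803), and neither did Dcstamp and Itgb3. Oscar, an osteoclast receptor, had 0 reads in the etelcalcetide group and 310 reads in the RANKL group. Calcr, the calcitonin receptor of mature osteoclasts, had 0 reads in the etelcalcetide group and 8 reads in the RANKL group. Of 9 tested macrophage markers 6 rose and 0 fell, with a sum of 3143 to 3323 FPKM with etelcalcetide and 2705 to 2868 FPKM with RANKL alone. Most of that sum was Lyz2, which averaged 1830 FPKM with etelcalcetide and 1748 FPKM with RANKL alone. It did not pass (limma adjusted p = 0.906), and neither did Csf1r and Cd68. In bulk RNA, fewer cells of a type and less RNA per cell cannot be told apart, and the part of this marker shift in the results below was not tested. None of the 5 T cell, 4 B cell, 6 neutrophil and mast cell or 6 epithelial and endothelial markers was high enough to test. The T cell list summed to at most 0.0561 FPKM with etelcalcetide and to 0.278 to 0.912 FPKM with RANKL alone, with 2 of 5 genes, Cd3e and Cd3g, at 0 reads in all libraries. Its Cd4 had 5 reads in the etelcalcetide group and 32 in the RANKL group, and Trac had 0 reads and 15 reads in those groups. The B cell list summed to 0.558 to 0.984 FPKM with etelcalcetide and to 0.130 to 0.432 FPKM with RANKL alone, with 2 of 4 genes at 0 and Cd79b at 39 reads with etelcalcetide and 13 with RANKL alone. The neutrophil and mast cell list stayed at or below 0.159 FPKM with etelcalcetide and 0.196 FPKM with RANKL alone, with Ly6g, S100a9 and Mpo at 0. The epithelial and endothelial list summed to 0.0290 to 0.0984 FPKM with etelcalcetide and to 0.489 to 0.751 FPKM with RANKL alone, with 3 of 6 genes at 0 and Pecam1 at 12 reads with etelcalcetide and 153 with RANKL alone. Of 6 fibroblast and osteoblast markers, 1 was tested (Alpl, which fell), and the list summed to 0.838 to 1.12 FPKM with etelcalcetide and 1.35 to 1.49 FPKM with RANKL alone.

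Of the 10 members, 7 rose with etelcalcetide, 0 fell and 3 did not pass. Over all tested genes 26.0% were called higher and 27.0% lower. No test was run on these counts, because the members were chosen with results of these data known. The median log2 fold change was 0.52 over the members and -0.01 over all tested genes. After scaling, the groups were fully separated for 7 members, each higher with etelcalcetide, and 30.7% of all tested genes were separated in that direction and 31.2% in the other. Of the members, 2 (Bcl2a1b and Bcl2a1d) rose by at least 2-fold and 0 fell by as much. Of all tested genes, 4.10% rose and 2.92% fell by at least 2-fold. Bcl2a1b and Bcl2a1d are nearly identical copies whose single values are uncertain (below), so they are not independent members in any of these counts. Among pro-survival members 3 of 5 rose, with a median log2 fold change of 0.30. Among BH3-only members 3 of 4 rose, with a median of 0.62, and the effector Bak1 rose.

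**Figure D1:**
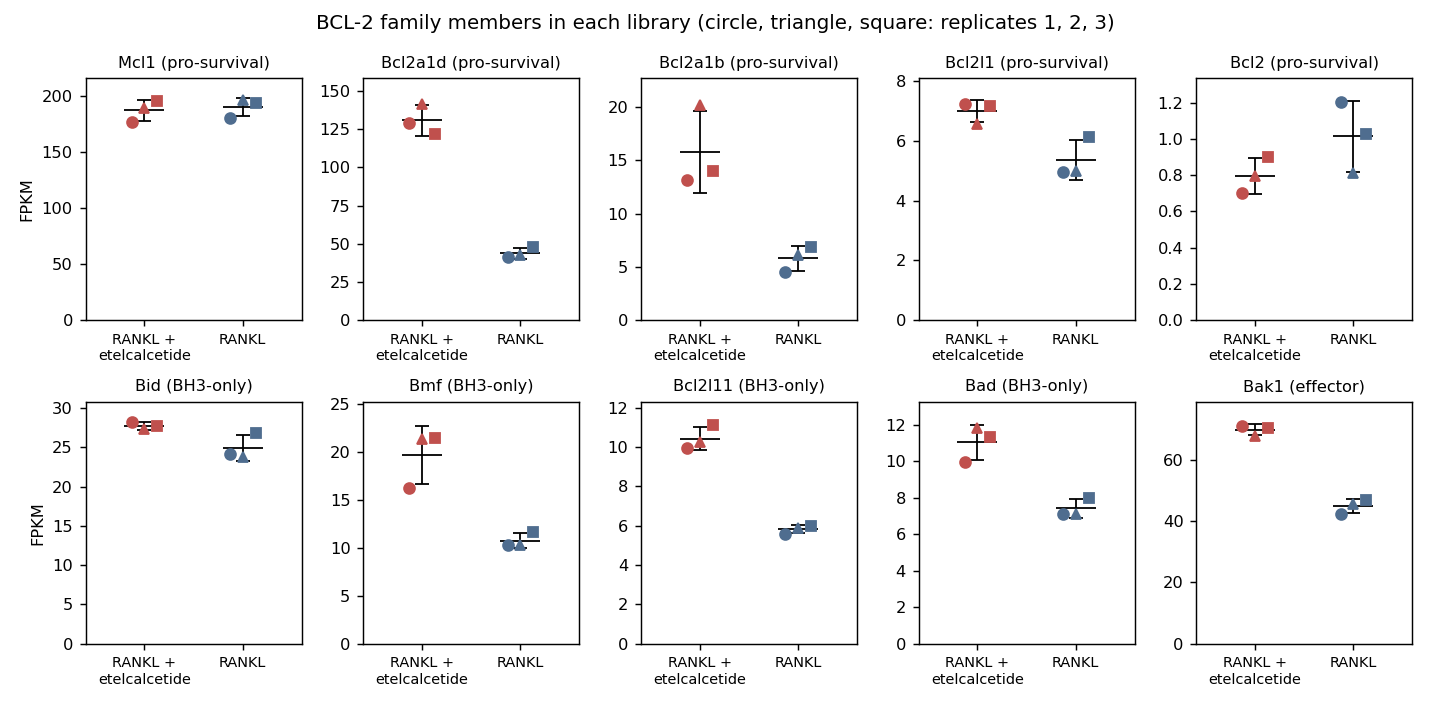
FPKM (vertical axes, each from 0) of the 10 members in the 3 RANKL + etelcalcetide libraries (left of each panel, red) and the 3 RANKL libraries (right, blue), with mean and SD as black bars. Bcl2a1d lies at 122 to 142 FPKM with etelcalcetide and at 41.2 to 47.8 FPKM with RANKL alone, while the points of Mcl1 and Bcl2 overlap between the groups.

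The largest changes among the members were in Bcl2a1d and Bcl2a1b, which encode copies of A1, a pro-survival protein of blood cells known as a target of NF-kB. Bcl2a1d (ENSMUSG00000099974, chromosome 9, 88723285 to 88731914, GRCm38) had 129, 142 and 122 FPKM with etelcalcetide, against 41.2, 42.4 and 47.8 FPKM with RANKL alone. All 3 etelcalcetide libraries stood far above all 3 RANKL libraries, and the log2 fold change was 1.498 (SE 0.0775, limma adjusted p = 1.39e-06), or 2.82-fold. Bcl2a1b (ENSMUSG00000089929, chromosome 9, 89199209 to 89207827) had 13.2, 20.2 and 14.0 FPKM with etelcalcetide and 4.49, 6.09 and 6.82 FPKM with RANKL alone. The groups again did not overlap, with etelcalcetide replicate 2 the highest, and the log2 fold change was 1.35 (SE 0.189, limma adjusted p = 0.000434).

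Another expressed copy, Bcl2a1a, is not among the 10 members. It had 17.4, 19.3 and 14.9 FPKM with etelcalcetide and 1.44, 2.61 and 1.51 FPKM with RANKL alone. Its log2 fold change was 3.11 (SE 0.207; limma adjusted p = 6.16e-06). The copies are close to identical, so their single values are uncertain. The transcripts of Bcl2a1b and Bcl2a1d matched at 810 of 817 aligned bases, and 79.2% of the 50-base windows of Bcl2a1b and 79.5% of those of Bcl2a1d also occur in transcripts of the other Bcl2a1 copies or Gm29094. At 150 bases the shares were 41.9% and 30.3%. The counting of reads that match several copies was not given in the sources used here. In addition, 49.1% of the exon length of Bcl2a1b lies in Gm29094, a gene on the same strand. Summed over Bcl2a1a, Bcl2a1b and Bcl2a1d, the level was 159.6, 181 and 151 FPKM with etelcalcetide, against 47.1, 51.1 and 56.1 FPKM with RANKL alone. Fitted as a single gene, the sum rose by 1.59 on the log2 scale (SE 0.0872, limma adjusted p = 1.96e-06). Summing takes away a split of reads among these 3 copies. It does not bring back shared reads that were left out, or remove reads counted for several copies. Bcl2a1c, the remaining copy, had 0 reads in all 6 libraries, which allows up to 3 reads, or 0.415 to 0.492 FPKM depending on the library, by counting error only.

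The promoters of the 3 copies that rose are shown because they are nearly the same sequence. They are from RefSeq on GRCm38.p6, each with 250 bases before and 50 after the annotated start, written 5′ to 3′ on the strand of the gene. The capitals mark TGANTCA (AP-1) and GAGGAA (the PU box bound by PU.1) on either strand, the PU box also read as TTCCTC.
Bcl2a1d, chr9:88731801-88732100, minus strand: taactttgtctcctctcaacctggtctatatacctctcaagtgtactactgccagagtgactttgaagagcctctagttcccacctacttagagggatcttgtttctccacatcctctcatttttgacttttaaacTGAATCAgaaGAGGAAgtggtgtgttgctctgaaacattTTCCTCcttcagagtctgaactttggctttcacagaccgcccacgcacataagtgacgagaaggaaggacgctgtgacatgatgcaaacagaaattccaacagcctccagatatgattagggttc
Bcl2a1b, chr9:89199023-89199322, plus strand: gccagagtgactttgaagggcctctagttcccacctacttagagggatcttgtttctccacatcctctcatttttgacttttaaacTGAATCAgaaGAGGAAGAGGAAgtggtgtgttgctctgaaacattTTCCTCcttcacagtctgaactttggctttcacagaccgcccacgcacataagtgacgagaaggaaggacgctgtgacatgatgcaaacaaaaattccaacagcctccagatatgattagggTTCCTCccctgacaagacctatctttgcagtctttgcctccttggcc
Bcl2a1a, chr9:88956670-88956969, plus strand: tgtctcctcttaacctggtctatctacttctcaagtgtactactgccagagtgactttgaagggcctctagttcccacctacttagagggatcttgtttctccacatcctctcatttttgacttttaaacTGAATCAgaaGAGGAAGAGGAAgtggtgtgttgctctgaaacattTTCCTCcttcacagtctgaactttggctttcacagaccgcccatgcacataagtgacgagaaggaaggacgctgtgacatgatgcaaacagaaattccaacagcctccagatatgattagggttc
Aligned over the stretch they share, with gaps left out, the windows of Bcl2a1b and Bcl2a1d were identical at 247 of 250 bases. Those of Bcl2a1a and Bcl2a1d were identical at 288 of 294 bases. The added GAGGAA in Bcl2a1b and Bcl2a1a, missing from Bcl2a1d, is such a gap. The PU box occurs 2 times in the Bcl2a1d window, 4 times in that of Bcl2a1b and 3 times in that of Bcl2a1a. The last PU box of the Bcl2a1b window lies where the other 2 windows break off, so it could not be counted in them. Windows of Bad, Bak1, Bcl2, Bid and Bmf hold the PU box as well, as do 28.3% of all 32851 promoter windows. The AP-1 letters occur in all 3 windows and in no window of the other 8 members, with a share of 7.81% among all windows. A kappa B match (GGG, any 5 bases, then CC, on either strand) lies in the Bcl2a1b window alone among the 3, where it overlaps a PU box. The Bcl2a1a and Bcl2a1d windows break off inside that same stretch, so the search could not find the match there. Each of the other 8 members has such a match in at least 1 window, and 50.8% of all windows hold it. The letters of CRE (TGACGTCA), the E box of MITF (CACGTG) and GAS (TTCNNNGAA, read by STAT factors) were also searched. No window of the members or of Bcl2a1a holds them, and 1.79%, 7.15% and 8.3% of all windows do. These are matches of letters, and binding was not measured.

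The other pro-survival genes moved little or not at all. Mcl1, which encodes a short-lived protein that restrains BAK and BIM (chromosome 3, 95658788 to 95663176), had 177, 189 and 195 FPKM with etelcalcetide and 181, 197 and 193 FPKM with RANKL alone. The values of the groups overlapped, and the log2 fold change of -0.10 did not pass (95% interval -0.23 to 0.03, limma adjusted p = 0.167). It was -0.14 without RANKL replicate 1, -0.06 without etelcalcetide replicate 1 and -0.02 with library totals, and passed in none of these fits. Bcl2l1, which encodes BCL-XL (chromosome 2, 152780668 to 152831728), had 7.25, 6.58 and 7.17 FPKM with etelcalcetide, against 4.97, 5.00 and 6.15 FPKM with RANKL alone. It rose by 0.30 on the log2 scale (SE 0.0961, limma adjusted p = 0.0255), with RANKL replicate 3 the closest to the etelcalcetide libraries. That call was lost in 4 of the 6 fits that left out a library: adjusted p was 0.0679 without RANKL replicate 1, 0.0874 without RANKL replicate 2, 0.0778 without etelcalcetide replicate 1 and 0.0792 without etelcalcetide replicate 3 (limma). It was also lost with no filter on low genes (limma adjusted p = 0.0610). Bcl2, the founding pro-survival gene (chromosome 1, 106538178 to 106714274), was the lowest member in both groups. It had 0.701, 0.795 and 0.900 FPKM with etelcalcetide and 1.20, 0.812 and 1.03 FPKM with RANKL alone, with overlapping values (log2 fold change -0.37, 95% interval -0.79 to 0.04, limma adjusted p = 0.117). It was -0.20 with a pseudocount of 1 FPKM. With limma voom on reads recovered from the FPKM, Bcl2 passed as lower (adjusted p = 0.0491).

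Among the BH3-only genes, Bcl2l11 and Bmf rose by about the same amount. Bcl2l11, which encodes BIM, a binder of all pro-survival members (chromosome 2, 128126038 to 128162547), had 9.96, 10.2 and 11.1 FPKM with etelcalcetide, against 5.599, 5.91 and 5.98 FPKM with RANKL alone. Its groups were well apart, and the difference was 0.75 on the log2 scale (SE 0.0714, limma adjusted p = 4.58e-05), or 1.68-fold. Bmf, whose protein is held on the actin cytoskeleton in healthy cells (chromosome 2, 118528757 to 118549687), had 16.2, 21.3 and 21.4 FPKM with etelcalcetide and 10.3, 10.3 and 11.6 FPKM with RANKL alone. All etelcalcetide values were higher, with replicate 1 the lowest of them, and the log2 fold change was 0.78 (SE 0.112, limma adjusted p = 0.000481). Bmf stood at 1.88 ± 0.232 times the level of Bcl2l11 with etelcalcetide and at 1.84 ± 0.103 times with RANKL alone (mean ± SD of FPKM ratios, n = 3 per group).

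BIM is known as a target of FOXO factors, and 1 of its 2 RefSeq promoter windows holds the FOXO letters GTAAACA, shown here in capitals on GRCm38.p6.
Bcl2l11, chr2:128125801-128125827, plus strand: agacactaggGTAAACAcgccggggtg
No window of the other 9 members holds these letters on either strand, and 3.65% of all windows do. The 3 windows of Bmf hold no such match.

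Bad, whose protein frees BCL-2 and BCL-XL of their partners when survival kinases are inactive (chromosome 19, 6941861 to 6951899), had 9.96, 11.8 and 11.3 FPKM with etelcalcetide, against 7.12, 7.12 and 7.99 FPKM with RANKL alone. It rose by 0.49 on the log2 scale (SE 0.0869, limma adjusted p = 0.00156) with no overlap. An antisense gene, Gpr137, covers 20.5% of its exon length, and it did not pass the test (limma adjusted p = 0.299). Bid, whose protein is cleaved by caspase 8 and so links death receptors to mitochondria (chromosome 6, 120891930 to 120916853), had 28.3, 27.3 and 27.7 FPKM with etelcalcetide and 24.2, 23.8 and 26.8 FPKM with RANKL alone. The etelcalcetide values were the higher ones as deposited but overlapped after scaling. Its log2 fold change of 0.08 did not pass (95% interval -0.06 to 0.21, limma adjusted p = 0.301). It was 0.16 with library totals, 0.13 without RANKL replicate 3 and 0.05 without RANKL replicate 2, and passed in none of these fits. Of its exon length, 17.7% lies antisense to Bcl2l13.

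Bak1, which encodes BAK, an effector that forms pores in the outer membrane (chromosome 17, 27019810 to 27029009), had 71.0, 67.8 and 70.3 FPKM with etelcalcetide and 42.4, 45.5 and 46.7 FPKM with RANKL alone. It rose by 0.56 on the log2 scale (SE 0.0521, limma adjusted p = 4.18e-05), or 1.47-fold, with no overlap. Its antisense neighbour Ggnbp1 covers 25.5% of its exon length, and the higher of its 2 gene IDs averaged 0.0827 FPKM with etelcalcetide and 0.122 FPKM with RANKL alone. Bax, the other effector, had 57.8, 55.5 and 56.3 FPKM with etelcalcetide and 54.1, 53.6 and 65.7 FPKM with RANKL alone. Its values overlapped and it did not pass (log2 fold change -0.10, 95% interval -0.28 to 0.07, limma adjusted p = 0.276). That value rested on RANKL replicate 3: without it the log2 fold change was -0.01, and it was -0.02 with library totals. The ratio of Bak1 to Bax FPKM was 1.23, 1.221 and 1.25 with etelcalcetide, against 0.784, 0.849 and 0.711 with RANKL alone. As deposited, Bak1 was thus the higher of the pair in each etelcalcetide library and the lower in each RANKL library. Strandedness was not given, so reads in the Ggnbp1 overlap may be missing from Bak1. Which gene of the pair is the higher in the RANKL libraries is therefore uncertain.

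**Figure D2:**
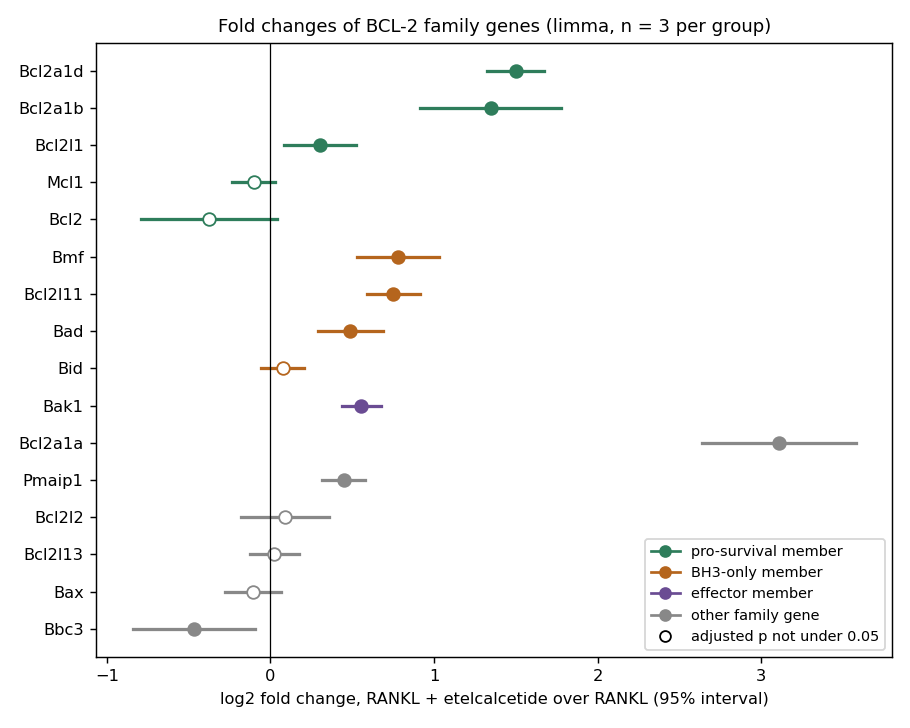
Log2 fold change of RANKL + etelcalcetide over RANKL (horizontal axis) with its 95% interval for the 10 members by role and for the 6 other family genes high enough to test. Filled points passed at an adjusted p under 0.05. The copies of A1 lie furthest right, at 1.35 to 3.11, and Mcl1, Bcl2, Bid, Bax, Bcl2l2 and Bcl2l13 have intervals that include 0.

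The order of levels also changed around Bcl2a1d. With etelcalcetide the order was Mcl1 (187 ± 9.38 FPKM, mean ± SD, n = 3), Bcl2a1d (131 ± 9.95), Bak1 (69.7 ± 1.70), Bid (27.7 ± 0.478), Bmf (19.6 ± 3.004), Bcl2a1b (15.8 ± 3.85), Bad (11.04 ± 0.960), Bcl2l11 (10.4 ± 0.596), Bcl2l1 (7.00 ± 0.364) and Bcl2 (0.798 ± 0.0995). Of the neighbours in that order, Bmf and Bcl2a1b overlapped, as did Bad and Bcl2l11. With RANKL alone the order was Mcl1 (190.2 ± 8.40 FPKM), Bak1 (44.9 ± 2.22), Bcl2a1d (43.8 ± 3.51), Bid (24.9 ± 1.64), Bmf (10.7 ± 0.783), Bad (7.41 ± 0.503), Bcl2l11 (5.83 ± 0.203), Bcl2a1b (5.80 ± 1.19), Bcl2l1 (5.37 ± 0.674) and Bcl2 (1.01 ± 0.196). There Bak1 overlapped Bcl2a1d, and Bcl2a1b overlapped both Bcl2l11 and Bcl2l1.

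Pro-survival and BH3-only members were then compared as sums of FPKM in each library. Family genes outside the 10 members, such as Bcl2a1a and the BH3-only gene Pmaip1 (below), are not in these sums. The 5 pro-survival members summed to 327, 358 and 339 FPKM with etelcalcetide, against 232, 251 and 255 FPKM with RANKL alone. The 4 BH3-only members summed to 64.3, 70.7 and 71.6 FPKM with etelcalcetide and to 47.2, 47.1 and 52.4 FPKM with RANKL alone. Both sums were thus higher in every etelcalcetide library, and their ratio stayed near the same value. It was 5.08, 5.07 and 4.74 with etelcalcetide and 4.93, 5.33 and 4.87 with RANKL alone, which averaged 4.97 ± 0.194 with etelcalcetide and 5.04 ± 0.250 with RANKL alone (SD, n = 3 per group). The mean log2 ratio differed by -0.02 between the groups, less than the replicate SD of 0.0641. The ratio takes the Bcl2a1b and Bcl2a1d values as deposited, and these are uncertain (above). No p is given for these sums, because the members were chosen with results of these data known.

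What differed was the make-up of the sums. Mcl1 made up 54.1%, 52.8% and 57.6% of the pro-survival sum with etelcalcetide, against 77.7%, 78.4% and 75.8% with RANKL alone. Bcl2a1b and Bcl2a1d together made up 43.5%, 45.1% and 40.0% with etelcalcetide and 19.6%, 19.3% and 21.4% with RANKL alone. The shares of Mcl1 and of these copies rest on the same uncertain values. Within the BH3-only sum, Bcl2l11 and Bmf together took 43.6% ± 2.60 with etelcalcetide and 33.9% ± 0.403 with RANKL alone, while Bid took 40.4% ± 3.03 with etelcalcetide and 51.0% ± 0.371 with RANKL alone (SD, n = 3 per group). Leaving genes out changed the ratio. Without Bcl2a1b and Bcl2a1d, the ratio of pro-survival to BH3-only FPKM was 2.83 ± 0.0472 with etelcalcetide and 4.03 ± 0.243 with RANKL alone. Without Mcl1 it was 2.25 ± 0.205 with etelcalcetide and 1.14 ± 0.0411 with RANKL alone (both choices were made after seeing the data). Set against Mcl1 alone, Bcl2l11 stood at 5.62%, 5.42% and 5.68% of its FPKM with etelcalcetide, against 3.10%, 3.01% and 3.09% with RANKL alone. These are RNA levels, and protein was not measured.

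**Figure D3:**
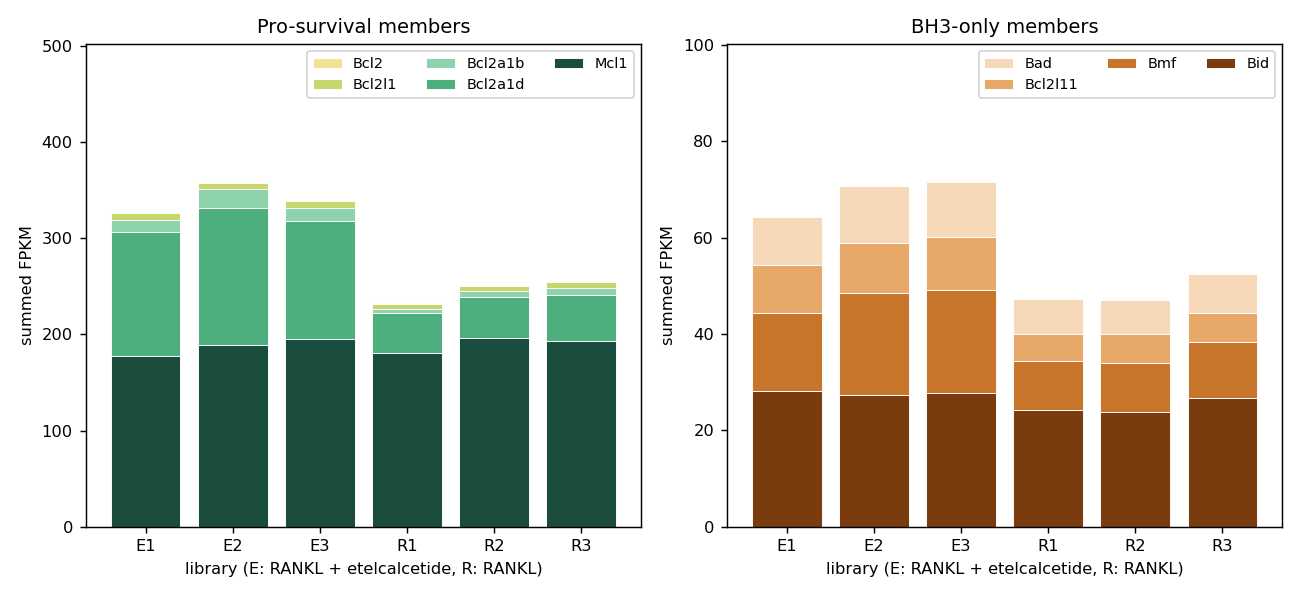
Summed FPKM (vertical axes from 0) of the pro-survival members (left) and the BH3-only members (right) in each library, stacked by gene, with the 3 RANKL + etelcalcetide libraries (E1 to E3) left of the 3 RANKL libraries (R1 to R3). The Mcl1 block is of like height in all libraries, and the Bcl2a1d block takes the added height with etelcalcetide.

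The family has further genes, of which 13 were listed and 6 were high enough to test. Of these, Bcl2a1a (above) and Pmaip1 rose, Bbc3 fell, and Bax, Bcl2l2 and Bcl2l13 did not pass. Pmaip1, which encodes NOXA, a BH3-only binder of MCL-1 and A1, had 69.6, 74.6 and 74.3 FPKM with etelcalcetide, against 48.5, 53.3 and 49.8 FPKM with RANKL alone. Its log2 fold change was 0.45 (SE 0.0581, limma adjusted p = 0.000272), and at these levels it stood above each of the 4 BH3-only members in both groups. Its mean was 72.8 FPKM with etelcalcetide and 50.5 FPKM with RANKL alone, against 68.9 and 48.9 FPKM for the sum of those 4. In RANKL replicate 3 that sum, at 52.4 FPKM, was the higher. The ratio of pro-survival to BH3-only FPKM above leaves Pmaip1 out. Bbc3, which encodes PUMA, a BH3-only target of p53, had 4.79, 5.72 and 5.24 FPKM with etelcalcetide and 5.95, 5.93 and 9.30 FPKM with RANKL alone. It fell by 0.47 on the log2 scale (SE 0.165, limma adjusted p = 0.0383), and RANKL replicate 3 was far above the other libraries. Without that library the log2 fold change was -0.26 (limma adjusted p = 0.0526), and the call was also lost without etelcalcetide replicate 1 (0.116), without etelcalcetide replicate 3 (0.0864), with library totals (0.0724) and with no filter (0.120).

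Bcl2l2, which encodes the pro-survival BCL-W, averaged 5.05 ± 0.842 FPKM with etelcalcetide and 4.46 ± 0.359 FPKM with RANKL alone (limma adjusted p = 0.563). Bcl2l13, a mitochondrial relative, averaged 9.02 ± 0.393 FPKM with etelcalcetide and 8.39 ± 0.257 FPKM with RANKL alone (limma adjusted p = 0.794). Of the 7 genes too low to test, Bcl2l15 had 7 reads over the etelcalcetide group and 52 over the RANKL group, and Bcl2l14 had 19 reads with etelcalcetide and 2 with RANKL alone. Bok, an effector relative, had 9 reads with etelcalcetide and 10 with RANKL alone, and Bik, a BH3-only gene, had 4 with etelcalcetide and 0 with RANKL alone. Bcl2l10, Hrk and Bcl2a1c had 0 reads in all 6 libraries.

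Genes that feed into the family were described from lists chosen by role, also with earlier results of these data known. The death receptor list leads to caspase 8 and BID: of its 8 tested genes 5 rose and 0 fell, beside 26.0% higher and 27.0% lower among all tested genes, with a median log2 fold change of 0.38. Fas, a death receptor, averaged 4.89 ± 0.467 FPKM with etelcalcetide and 1.47 ± 0.2999 FPKM with RANKL alone (SD, n = 3 per group). Tnfrsf1a, TNF receptor 1, averaged 63.0 ± 1.27 FPKM with etelcalcetide and 37.0 ± 1.72 FPKM with RANKL alone. Its adaptor Tradd averaged 10.8 ± 0.530 FPKM with etelcalcetide and 6.23 ± 1.12 FPKM with RANKL alone. The limma adjusted p was 3.43e-05 for Fas, 1.16e-05 for Tnfrsf1a and 0.000975 for Tradd. Fadd, the adaptor that recruits caspase 8, rose by 0.28 on the log2 scale (limma adjusted p = 0.0462), a call lost in 5 of the 6 fits that left out a library. The limma adjusted p was 0.105 without RANKL replicate 1, 0.0852 without RANKL replicate 2, and 0.0916, 0.122 and 0.106 without etelcalcetide replicates 1, 2 and 3. It was also lost with the replicate number as a block (limma adjusted p = 0.0579).

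Among 15 tested transcription factors known to act on members, 10 rose and 3 fell, beside the same 26.0% and 27.0%, with a median log2 fold change of 0.40. Relb, a subunit of the alternative NF-kB pathway, averaged 20.2 ± 0.339 FPKM with etelcalcetide and 8.39 ± 1.01 FPKM with RANKL alone. Nfkb2, its partner, averaged 61.9 ± 1.87 FPKM with etelcalcetide and 33.01 ± 2.61 FPKM with RANKL alone. Stat5a, which acts on Bcl2l1 and Mcl1 in blood cells, rose by 1.23 on the log2 scale (SE 0.0840, limma adjusted p = 6.83e-06). Mitf, a factor of osteoclasts that drives Bcl2 in pigment cells, fell by 1.14 on the log2 scale (SE 0.0840, limma adjusted p = 1.07e-05), to 9.32 ± 0.604 FPKM with etelcalcetide, against 19.5 ± 1.70 FPKM with RANKL alone.

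Of 20 tested genes for proteins that hold or modify members, 6 rose and 7 fell, shares near the 26.0% higher and 27.0% lower of all tested genes. Dynll2, the dynein light chain that binds BMF, averaged 59.2 ± 3.46 FPKM with etelcalcetide and 35.6 ± 3.46 FPKM with RANKL alone (log2 fold change 0.66, limma adjusted p = 0.000134). The kinases Pim1 and Akt2, which phosphorylate BAD, rose by 0.71 and 0.37 on the log2 scale. Vdac2, a membrane channel that holds BAK, fell by 0.24 on the log2 scale (limma adjusted p = 0.00295).

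Downstream of the mitochondrion, 5 of 15 genes rose and 6 fell, beside 26.0% higher and 27.0% lower among all tested genes, with a median log2 fold change of -0.23. Birc3, an inhibitor of apoptosis induced by NF-kB, averaged 46.5 ± 0.509 FPKM with etelcalcetide and 32.9 ± 1.45 FPKM with RANKL alone. Cycs, cytochrome c, and Aifm1, a flavoprotein of the intermembrane space, fell by 0.37 and 0.47 on the log2 scale. The limma adjusted p was 0.000196 for Birc3, 0.000498 for Cycs and 0.000832 for Aifm1.

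**Figure D4:**
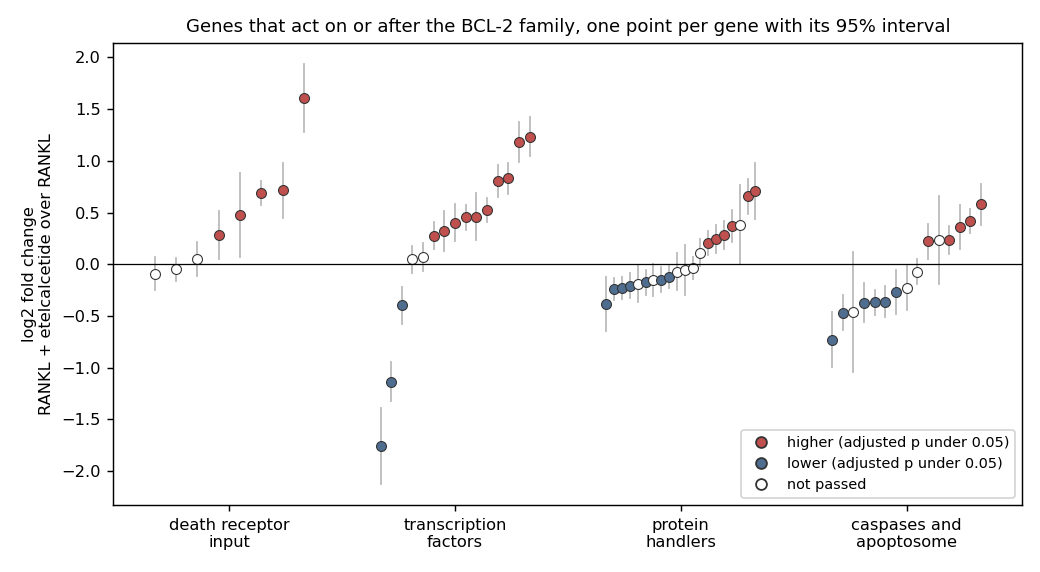
Log2 fold change of RANKL + etelcalcetide over RANKL (vertical axis) for each tested gene of 4 lists, sorted within a list, with 95% intervals in grey. Red points were higher, blue points lower and white points did not pass; in the death receptor list 5 genes are red and 0 blue, while the caspase list holds 5 red and 6 blue points.

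For Bcl2a1d and Bcl2l11, the pro-survival and the BH3-only member with the smallest adjusted p, the genes with the closest profile were sought among all tested genes. The measure was the root mean square distance between centred log2 values over the 6 libraries, which mostly reflects the size of the group difference. Closest to Bcl2a1d were Fgr, a SRC family kinase (distance 0.0373), Hap1 (0.0483) and Tnfaip2 (0.0617). Closest to Bcl2l11 were Pde4a, a cyclic AMP phosphodiesterase (0.0238), Tyk2, a Janus kinase (0.0254), and Stat3, a cytokine-activated factor (0.0365). Fgr averaged 33.3 ± 2.18 FPKM with etelcalcetide and 11.5 ± 0.890 FPKM with RANKL alone, and Stat3 averaged 13.5 ± 0.542 FPKM with etelcalcetide and 7.27 ± 0.372 FPKM with RANKL alone.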

How the data were processed

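The authors deposited 1 table per library of FPKM values for 55536 mouse Ensembl gene IDs. Named in no order, per the submitters' processing notes, were HISAT2 2.1.0, Trimmomatic 0.38, DESeq2 1.22.1, featureCounts 1.6.0, MultiQC, FastQC, CASAVA and the build GRCh38. All IDs matched GENCODE M21 on GRCm38, which gave symbols, exon lengths and positions. Strandedness, which bears on antisense overlaps, was not given in the sources used here. FPKM times exon length gave whole reads for 100% of values (tolerance 0.01 reads, wider in proportion for high counts). FPKM are not counts, so no count model was the main test. Trimmed-mean factors (TMM) from these reads scaled the FPKM, and log2 values with a pseudocount of 0.1 FPKM were fitted by group with limma 3.58.1 in R 4.3.3, with a mean-dependent prior. Genes with 0.5 FPKM and 10 reads in at least 3 libraries were tested. Changes on this log2(FPKM + 0.1) scale are understated for low genes, and printed FPKM are unscaled. The fit was tested on simulated data. The members and lists were chosen with earlier results of these data known. Text names all members and family genes, for each list the 4 genes lowest in adjusted p (1 of them is not reported here), and the 3 closest profiles per lead member. Of 16 listed factors, 1 had a symbol shared by 2 IDs and was left out. By label, same-numbered libraries share a culture time (5, 6 or 7 days), so a fit with the replicate number as a block was run beside the main one. Deviations of same-numbered libraries from their group means correlated at 0.0744, -0.0188 and -0.0299 across genes. Alternatives covered scaling, filter, pseudocount, limma voom, the replicate block and leaving out each library.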

Additional observations from a re-analysis of the deposited data

How the results depend on the processing

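Under 15 alternatives the count of changed genes was 4689 to 6133 (4689 to 6064 when leaving out 1 library) against 5894, and the count of changed members 6 to 8 (6 to 7 when leaving out 1 library) against 7. Bcl2a1d, Bcl2a1b, Bcl2l11, Bmf, Bad and Bak1 kept direction and call in all 15, with log2 fold changes of 1.42 to 1.58, 1.14 to 1.47, 0.67 to 0.83, 0.70 to 0.92, 0.42 to 0.57 and 0.52 to 0.64. Bcl2l1 lost its call in 5 of 15 and kept its direction in all. Of the genes that did not pass, Bcl2l13 changed sign without RANKL replicate 1 (-0.0012) and without etelcalcetide replicate 3 (-0.013), and so did Bcl2l2 without etelcalcetide replicate 3 (-0.039), within ranges of -0.013 to 0.047 and -0.039 to 0.172 when leaving out 1 library. The cause was not tested. The difference in mean log2 ratio of pro-survival to BH3-only FPKM was -0.05 to 0.02 when leaving out 1 library. It was 0.97 without Mcl1 and -0.51 without Bcl2a1b and Bcl2a1d, by the construction of these sums. Pseudocount, voom and the block give no value for this ratio. With the replicate block, which by label stands for the culture time, 5709 genes and 7 members changed, and of the named genes Fadd alone had another call (limma adjusted p = 0.0579). Fadd was not called with upper-quartile scaling (0.0553) or no filter (0.0965) either. Depth limits Bcl2 (99 to 168 reads per library) and Bcl2a1b (56 to 227) the most among the members.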
